A study of Saccharomyces cerevisiae with 30 samples.

Results

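Hms1 is a helix-loop-helix transcription factor of Saccharomyces cerevisiae, and the library described here holds the insertions of the Ty5 retrotransposon that were mapped in cells carrying the Hms1 fusion. It was 1 of 28 calling card libraries, 1 per transcription factor. Its 6394 listed insertions, called lines here because each is a line of the deposited list, were set against the 394623 lines of the 27 other libraries pooled, 401017 lines in all. A line was counted for a gene when it lay within 1200 bp of the start codon on the upstream side. Gene positions came from the coordinates of the deposited expression table and the strand from the W or C of the systematic name.

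In the calling card method the factor is fused to a fragment of Sir4, a silencing protein that Ty5 integrase binds, so that Ty5 inserts close to DNA where the factor sits. The labels name Ty5 as the transposon and Hms1 as the factor, and the series' text gives the strain as Σ1278b, a background that forms filaments when nitrogen is scarce. Every library of the series, Hms1 and the 27 others alike, came from cells in low-ammonium synthetic medium in which transposition was induced with 2% galactose. Colonies that were His+ and resistant to FOA were pooled for DNA, which was cut in 3 separate digests and amplified outward from Ty5. The labels do not say which allele the Hms1 strain carried, what promoter drove the fusion, or how many cultures were pooled. Also used here was 1 RNA library each from rich and from nitrogen-starved medium.

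HMS1 was named as a high-copy suppressor of the filamentation defect of ammonium permease mutants, and its helix-loop-helix domain resembles that of the sterol-responsive SREBP proteins of animals. Proteins of this class bind DNA as dimers at short E-box motifs and are best known in yeast for phosphate, phospholipid, sulphur and retrograde control. HMS2 came from the same genetic screen but encodes a protein like the heat shock factor, and Rtg1 is the other helix-loop-helix factor among the 28. No insertion library in the series was free of a factor fusion, so the pool of other factors serves as the only reference and is not an unfused background. Nothing in the files checks the identity of the fusion, since the RNA libraries are not of this strain.

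The Hms1 library was small and even. It held 6006 distinct positions and 862495 reads, and its lines had a median of 16 reads, while the 27 others held 2836 to 41619 lines with median reads of 4 to 46. Lines with a single read made up 20.7% of the library. Of the Hms1 positions, 29.95% were also listed in at least 1 other library, against 23.7% to 68.2% in the others, so the libraries are not fully separate lists. The gene with most Hms1 lines, TEC1, took 24 of them, or 3.75 per 1000 lines of the library. In the others the leading gene took 2.00 to 105 per 1000, with a median of 39.1. The 10 genes with most Hms1 lines took 2.46 per 1000 on average, against a median of 19.5 in the other libraries. Of 6402 genes with a line in any library, 3167 had no Hms1 line, 1520 had 1 and 56 had at least 10. A count of 0 lines was taken to allow up to 3, or 0.469 per 1000, and its two-sided exact Poisson 95% interval reaches 3.69 lines.

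Each gene was compared with Fisher's exact test, two-sided, on its lines against all other lines of the library, with Benjamini-Hochberg adjustment over the 6402 genes. A gene was called higher or lower at an adjusted p of at most 0.05. The test compares 1 library with a pool of 27, has no replicate, and takes lines as independent, so its p-values and intervals cover counting error only. Hms1 had more lines than the pool at 48 genes, 0.75% of those tested, and fewer at 49, 0.765%. The 48 genes fell in 36 loci, since genes with overlapping windows share lines, and the 49 in 30 loci. At an unadjusted p under 0.05 there were 505 higher and 92 lower genes among the 6402. These numbers are not alike, since a gene with few expected lines cannot reach such a p on the lower side. Upstream of genes that no factor called in the authors' deposited table, Hms1 also had 1.503 times the rate of the pool. All windows called higher held together 274 lines, 4.29% of the library (Wilson 95% interval 3.82% to 4.81%).

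**Figure D1:**
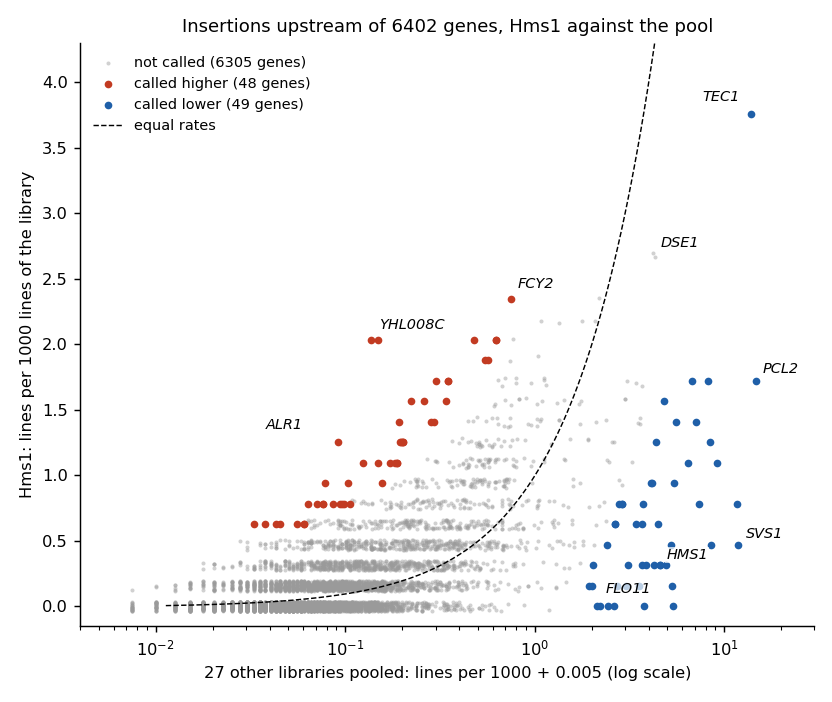
Lines per 1000 lines of the library upstream of each of 6402 genes, in the pool of 27 other libraries (horizontal, log scale after adding 0.005) and in Hms1 (vertical), with genes called higher in red and lower in blue. The red points lie at pooled rates under 1 per 1000 and the blue points at the high pooled rates, where no Hms1 gene except TEC1 exceeds 3 per 1000.

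The 2 counts depend on how lines and totals are counted. With lines within 5 bp of each other joined to 1 site, a setting added after seeing the data, 2 genes were higher and 0 lower. Of the 48 genes called higher, 47 had fewer such sites than lines. The exception was FCY2 with 15 of each, and its call was lost as well. Over all 6402 genes tested 886 had fewer, but 4687 had at most 1 Hms1 line and could not. Each of the 48 had at least 4 lines, so the 2 shares are not alike. Upstream of the 5719 genes that no factor called in the authors' deposited table, Hms1 placed 599.6 of every 1000 lines and the pool 399, a ratio of 1.503. Counted once for each window that holds it, a line gives 887 pairs of gene and line per 1000 lines in Hms1 and 586 in the pool, a ratio of 1.51 (0.60 on the log2 scale). With these pairs as the totals, also added after seeing the data, 13 genes were higher and 87 lower.

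The leading locus was the stretch upstream of YHL008C, a predicted membrane protein of the formate and nitrite transporter family. The window of this gene on chromosome 8 runs from 86660 to 87859 in the coordinates of the deposited files, whose genome build no source used here states. It held 13 Hms1 lines (exact Poisson 95% interval 6.92 to 22.2), or 2.03 per 1000, where the pooled rate gives 0.843. In the 27 other libraries the rate ran from 0 in 9 of them, with a median of 0.0981, to 0.516 per 1000 in Hot1, which had 4 lines. Hms1 was thus above every other library, although the large Phd1 and Mga1 libraries held 11 and 9 lines there. The odds ratio was 15.5 (exact 95% interval 7.72 to 28.8), with an adjusted p of 1.53e-08 by Fisher's exact test.

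All 13 YHL008C lines lay between 321 and 461 bp upstream of the start codon, at 13 positions. Their reads ran from 1 to 827 with a median of 31, and the richest line held 56.9% of the reads. The lines with most reads stood at 387, 355 and 396 bp, with 827, 159 and 147 reads. Other libraries listed 4 of the 13 positions, each of them in 1 library, and at 1 of these the other library had over 10 times more reads. Joining lines within 5 bp left 10 Hms1 and 48 pooled sites, an odds ratio of 9.78 and an adjusted p of 0.00171. Joining within 20 bp, which merges a dense group by construction, left 3 Hms1 and 46 pooled sites and an odds ratio of 2.69 with an adjusted p of 1. YHL006W-A was called from the same 13 lines (odds ratio 14.1), and its coordinates in the deposited table are merged with those of its neighbour STE20, so its start is uncertain.

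**Figure D2:**
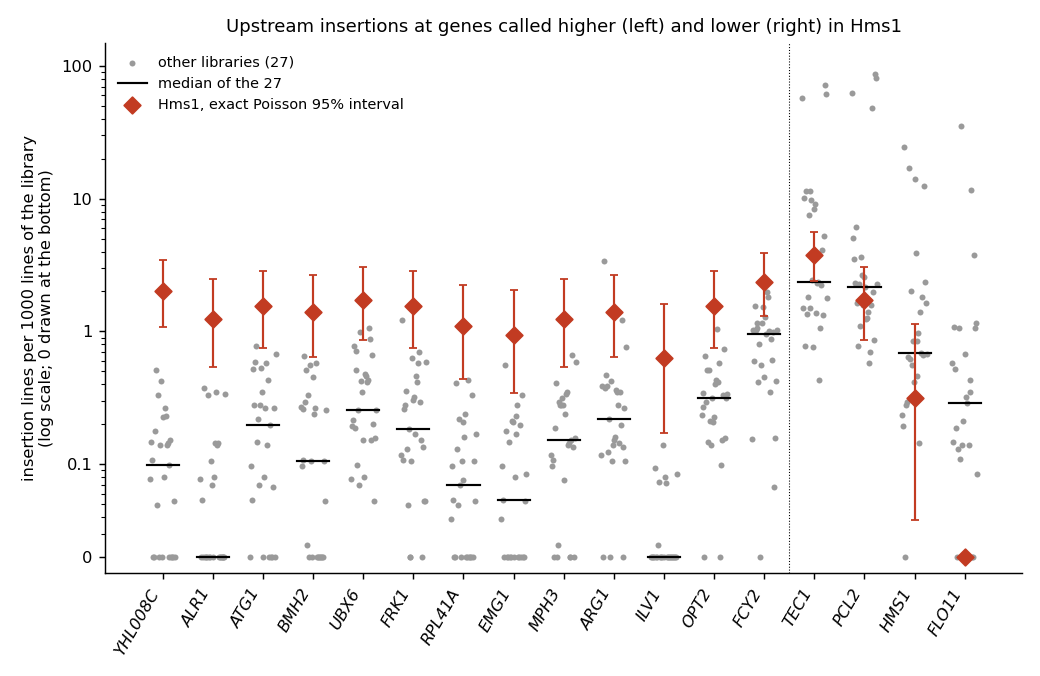
Lines per 1000 lines of the library (log scale, 0 drawn at the bottom) upstream of 13 genes called higher and 4 called lower in Hms1: red diamonds are Hms1 with exact Poisson 95% intervals, grey points the 27 other libraries, black bars their median. At YHL008C the Hms1 value of 2.03 stands above all 27 grey points, whereas at TEC1 and HMS1 a few libraries above 10 per 1000 set the pool.

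ALR1, the main magnesium uptake transporter of the plasma membrane, had the next smallest adjusted p. Its window on chromosome 15, from 71810 to 73009, held 8 Hms1 lines, 1.25 per 1000. In the others the rate ran from 0 in 15 libraries to 0.374 per 1000 in Gln3. The odds ratio was 14.5 (5.81 to 32.0) with an adjusted p of 6.25e-05. The lines stood in 2 groups, 4 between 380 and 462 bp and the rest between 755 and 790 bp, and no other library listed any of their positions. A single line at 755 bp held 84.6% of the 4383 reads. The 8 lines made 5 sites at 5 bp, and the call was then lost (odds ratio 8.38, adjusted p 0.676).

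Other transporter genes were among the genes called higher, but the share of transporter genes over all genes tested was not counted. Of 15 hexose transporter and sensor genes and 9 measured ammonium permease and sensing genes, 0 were called. MPH3, an alpha-glucoside transporter with a near-identical copy elsewhere in the genome, so that its lines are uncertain, had 8 lines (odds ratio 6.50). OPT2, an oligopeptide transporter, had 10 lines, 1.56 per 1000, against 0 to 1.04 per 1000 in the others (odds ratio 4.65, adjusted p 0.0112). FCY2, the permease for purines and cytosine, had 15 lines at 15 positions between 338 and 1135 bp upstream, the most of any gene called higher. The FCY2 rate was 2.35 per 1000 in Hms1 and ran from 0 to 1.97 per 1000 in the others, with a median of 0.961 and the highest value in Rgm1. Its odds ratio of 3.13 (1.73 to 5.26) was the smallest of the 48, with an adjusted p of 0.0157, and the call was lost when the 27 libraries were weighted equally (odds ratio 2.75, adjusted p 0.0690). In all, FCY2 was called in 6 of 13 settings against the pool, and it was lost among others with a 600 bp window and with lines within 5 bp joined. FCY2 lines were spread along the window, unlike those of YHL008C.

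Other called genes act in autophagy, protein unfolding and peroxisomal import, but the shares of such genes over all genes tested were not counted. ATG1, the kinase that starts autophagy, had 10 lines, 1.56 per 1000, in its chromosome 7 window from 157216 to 158415. The other libraries ran from 0 in 6 of them to 0.774 per 1000 in Hot1. Its odds ratio was 7.19 (3.33 to 13.9) with an adjusted p of 5.61e-04. The ATG1 lines were poor, with a median of 1.5 reads and 5 lines of a single read, and the call was lost among lines with at least 2 reads (odds ratio 4.14, adjusted p 0.311). UBX6, a cofactor of the Cdc48 unfolding machine, had 11 lines (odds ratio 5.81, 2.82 to 10.8), and each of the 27 others had at least 1 line there. PEX2, a ubiquitin ligase of peroxisomal import, had 9 lines (odds ratio 4.88), but with merged coordinates. It was not among the 25 genes with the smallest adjusted p and was called in 3 of 13 settings against the pool.

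Signalling genes among the leaders were BMH2, a 14-3-3 protein that binds phosphorylated partners, and FRK1, a protein kinase. BMH2 had 9 lines, 1.41 per 1000, against 0 to 0.655 per 1000 in the others (odds ratio 7.52, adjusted p 0.00115). Of the 9 lines, 7 lay between 933 and 1090 bp upstream, so the call was lost with a window of 600 bp. FRK1 had 10 lines (odds ratio 6.12, 2.85 to 11.7), and 6 of these lay at positions that other libraries also listed. The highest other FRK1 rate, 1.22 per 1000 in Fkh1, was the nearest to that of Hms1, 1.56 per 1000.

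Genes of ribosomes and RNA were also called, but the share of such genes over all genes tested was not counted. In a list of 28 cytosolic ribosomal protein genes, which leaves out RPL41A, 0 were higher. RPL41A, a very short protein of the large ribosomal subunit, had 7 lines, all between 58 and 129 bp upstream (odds ratio 9.20, 3.51 to 20.5). Its rate was 1.09 per 1000 in Hms1 and 0 to 0.433 per 1000 in the others, with 9 of them at 0. The 7 lines made 3 sites at 5 bp. YDL185C-A, called from the same 7 lines, has merged coordinates. EMG1, a methyltransferase of ribosomal RNA maturation, had 6 lines (odds ratio 9.50), and SBP1, an RNA-binding repressor of translation, had 8 with merged coordinates (odds ratio 6.59). Of 13 settings against the pool, RPL41A was called in 10, EMG1 in 7 and SBP1 in 5. The locus of ENV9, SRL1 and YOR248W had 8 lines (odds ratio 6.42 at ENV9), and YMR193C-A had 13 with merged coordinates (odds ratio 4.32).

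Called genes of amino acid and sulphur metabolism included ILV1, ARG1, LEU4, MET4 and MET10. The share of amino acid genes over all genes tested was not counted, so this grouping describes the called genes only. ILV1, threonine deaminase and the entry to isoleucine synthesis, had the largest odds ratio of the 48, 22.5 (5.21 to 75.8), on 4 lines. These 4 lay within 949 to 952 bp upstream, made 1 site at 5 bp, and 1 line held 99.2% of their reads, so this call rests on a single place. ARG1, argininosuccinate synthetase, had 9 lines, 1.41 per 1000, below the 3.37 per 1000 of Gcn4, the general activator of amino acid synthesis, and was second of the 28 (odds ratio 5.06). The adjacent genes LEU4, of leucine synthesis, and MET4, the activator of sulphur metabolism, shared 13 lines and were likewise second to Gcn4 (odds ratios 3.29 and 3.28). MET10, a subunit of sulphite reductase, had 4 lines in 1 site (odds ratio 11.2). Of 13 settings against the pool, ARG1 was called in 6, MET4 in 5, ILV1 and LEU4 in 4 each, and MET10 in 2.

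**Figure D3:**
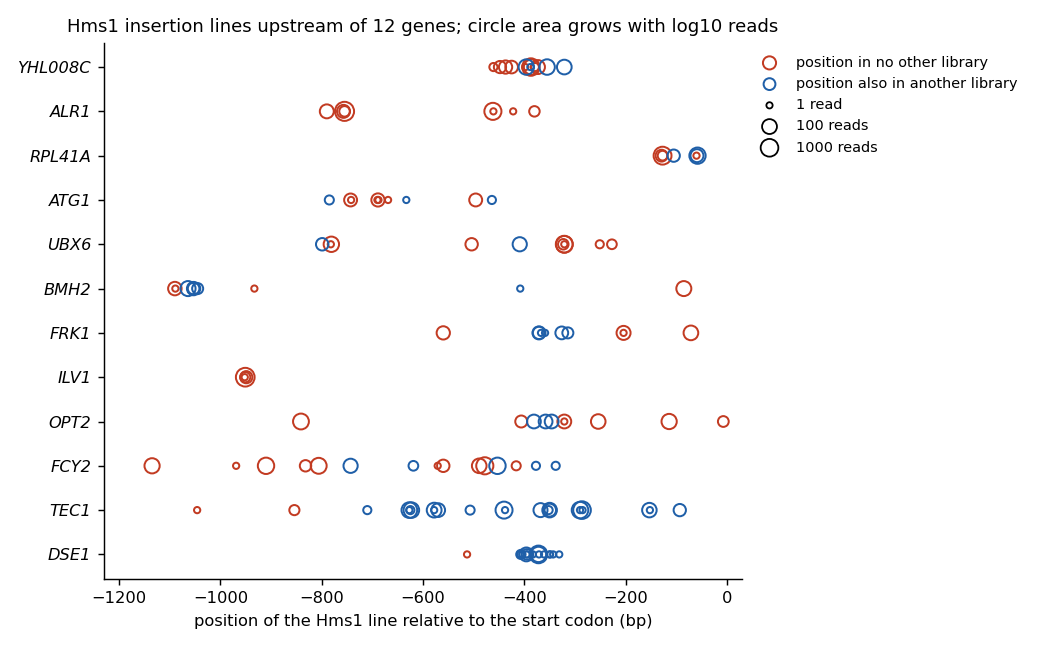
Each circle is an Hms1 line at its distance in bp upstream of the start codon, with area growing with log10 of its reads, red where no other library lists the position and blue where at least 1 does. YHL008C lines gather between 321 and 461 bp and those of ILV1 between 949 and 952 bp, FCY2 lines spread from 338 to 1135 bp, and most TEC1 and DSE1 circles are blue.

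The 48 genes had 4 to 15 lines each, with a median of 7, and 16 of them had at most 5. Hms1 was the highest of the 28 libraries at 42 of the genes and second at the others. Over all 6402 genes tested it was highest at 465 and second at 478. The 48 were called for a rate above the pool, so a high rank partly follows from the call. Merged coordinates of overlapping genes touched 16 of the 48, against 18.8% of all genes in the deposited table. No factor called 36 of the 48 at a p of 0.001 or less in the authors' deposited table, and the same held for 5677 of all 6402 genes tested.

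The authors' deposited table gave Hms1 14 genes at a p of at most 0.001, 0.217% of 6450, where the other factors had 4 to 164 with a median of 49. Of the 14, 10 were also called higher by Fisher's exact test, 71.4% of the deposited calls and 20.8% of the 48. YHL008C had the smallest p-value in the authors' deposited table, 1.25e-08, followed there by FCY2 at 1.72e-07 and FRK1 at 5.82e-06. The other 4 of the 14 were TOS7, RSP5, DSE1 and TEC1. TOS7, a membrane protein gene, had 14 lines, 2.19 per 1000, and an odds ratio of 2.03 that did not pass (adjusted p 0.341).

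TEC1, the partner of Ste12 in filamentation genes, had most Hms1 lines and a p-value of 0.000204 in the authors' deposited table, yet fewer lines than the pool. The 24 lines (exact Poisson 15.4 to 35.7) gave 3.75 per 1000, above the median of the others, 2.37, and below the 71.9 of Ste12, 61.8 of Tec1 and 57.8 of Dig1. Hms1 ranked 13 of 28, with an odds ratio of 0.27 (0.17 to 0.40) and an adjusted p of 5.76e-13. With lines within 5 bp joined the odds ratio was 1.06. Of the 24 lines, 22 lay at positions that other libraries list, and at 15 of them the reads elsewhere were at least 10 times as many. The Dig1 library held 15 of the 20 Hms1 positions, with a median of 2344 reads against 43 in Hms1. The part of shared positions in the TEC1 count was not tested.

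DSE1, a gene of daughter-cell separation, and the facing ubiquitin ligase gene RSP5 shared 17 Hms1 lines at 14 positions. At 12 of the lines there was a single read. The Fkh1 library held 13 of the 14 positions with a median of 66478 reads, against 1 read in Hms1. Neither gene differed from the pool by the test (odds ratios 0.63 and 0.62, adjusted p 0.580 and 0.533). Whether these lines came from the Fkh1 library was not tested.

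The 3 lower genes with the smallest adjusted p were SVS1, PCL2 and CIN5. SVS1, a wall protein gene, had 3 Hms1 lines, 0.469 per 1000, where the others had a median of 1.28 and Ste12 the highest rate, 59.7. The cyclin gene PCL2 had 11 lines, 1.72 per 1000, against a median of 2.17 and 87.3 in Ste12. CIN5, a stress-linked bZIP factor, had 5 lines, 0.782 per 1000, against a median of 0.975 and 71.0 in Flo8. Their odds ratios were 0.039, 0.11 and 0.066, with adjusted p-values of 1.13e-24, 1.01e-23 and 3.39e-22. Of the 49 lower genes, 44 were called by at least 5 factors in the authors' deposited table, against 84 of all 6402 genes tested. A gene with few expected lines cannot be called lower. The pool also holds the lines of the factors behind those deposited calls, so this overlap follows in part from the call. The Hms1 rate lay under the median of the others at 38 of the 49 genes and above it at 11. A lower call thus stands against the pooled rate and not always against a typical library. In 6 of the 49, among them FLO11 and MGA1, Hms1 had no line.

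Upstream of HMS1 itself the Hms1 library had 2 lines (exact Poisson 0.242 to 7.22), 0.313 per 1000, at 317 and 900 bp. The others ran from 0 to 24.7 per 1000 with a median of 0.687, and Hms1 ranked 22 of 28. Flo8 had 24.7, Mfg1 16.9, Mss11 14.1 and Sok2 12.4 per 1000. The odds ratio was 0.068 (0.0082 to 0.25) with an adjusted p of 6.34e-08. FLO11, the adhesin needed for filaments, had 0 Hms1 lines, which by the limit of 3 counts allows a rate of up to 0.469 per 1000, against 35.4 per 1000 in Mit1 and a median of 0.288 in the others.

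Of the 28 genes that encode the factors themselves, 0 were higher and 6 lower in Hms1, beside 0.75% and 0.765% of all genes tested: TEC1, MGA1, MSN4, PHD1, SOK2 and HMS1. PHD1, a filamentation activator, had 2 lines, and the paralogous SOK2 and the stress factor MSN4 had 6 and 5. These lower calls stand against the pooled rate. A gene with few expected lines cannot be called lower, so the share over all genes is not a like reference. The Hms1 rate was above the median of the others at TEC1, SOK2 (0.938 against 0.702 per 1000) and MSN4 (0.782 against 0.734). It was below that median at MGA1, PHD1 and HMS1. The highest rates were 60.4 per 1000 at SOK2, in the Sok2 library, and 79.5 at MGA1, in Sfl1. MSN1 had 3 lines, the highest rate of the 28 libraries at 0.469 per 1000, and did not pass (odds ratio 7.72, adjusted p 0.214). The median of log2 of lines plus 1 over expected lines plus 1 was -0.37 for these 28 genes and -0.16 over all genes tested. The 8 helix-loop-helix factor genes had 0 higher, 1 lower (HMS1 itself) and a median of -0.75.

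None of the 9 measured genes of the ammonium permease and sensing list was called, with a median of 0.20. MEP2, the permease that signals to filamentation, had 6 Hms1 lines, 0.938 per 1000, against 0 to 1.33 per 1000 in the others (adjusted p 0.838). Its relatives MEP1 and MEP3 had 9 and 6 lines, and MEP3, second of the 28, had an odds ratio of 4.03 and an adjusted p of 0.164. In the list of ammonium and nitrogen assimilation 0 of 16 passed, with a median of 0.05.

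Sterol and phospholipid genes were looked at because of the likeness to SREBP and of the phospholipid factors of this class. Of 26 ergosterol genes 0 passed in either direction, with a median of -0.30. NCP1, the reductase that feeds sterol enzymes, had 5 lines and the highest rate of the 28 libraries, 0.782 per 1000 (odds ratio 5.83, adjusted p 0.105). Of 14 phospholipid genes 0 passed, with a median of -0.13. Of 12 measured phosphate response genes 0 passed. Their median of 0.75, on 29 Hms1 lines, was the highest of 20 lists and was not tested. In this list 25% of genes had no Hms1 line, against 49.5% of all genes tested, which bears on the medians. Beside 0.75% of all genes tested that were higher, MET10 and MET4 were higher among 17 genes of methionine and sulphur (median 0.32). Among 24 of glycolysis the enolase gene ENO2 was higher (median -0.29).

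Beside 0.765% of all genes tested that were lower, 5 of 19 filamentation kinase genes and targets were lower and 0 higher. They were TEC1, PCL2, NFG1, CLN1 and SVS1, and the list had a median of -1.03. The pool holds the Ste12, Tec1 and Dig1 libraries, with 87.3, 80.8 and 63.0 per 1000 at PCL2, so these calls stand against the pooled rate. Genes with few expected lines cannot be called lower, which limits the comparison with the share over all genes. The Hms1 rate was above the median of the others at TEC1. It was below at PCL2 (1.72 against 2.17 per 1000), NFG1 (1.25 against 1.97), CLN1 (1.41 against 1.56) and SVS1 (0.469 against 1.28). Of 10 G1 and PCL cyclin genes 3 were lower, PCL2, CLN1 and PCL1. Of 7 flocculins and adhesins 6 had no Hms1 line, as had 49.5% of all genes tested, and 1, FLO11, was lower. The wall protein genes SED1 and CWP2 were lower among 22. In the lists of galactose genes, hexose transporters, B-type cyclins, general stress, cell separation and protein kinase A no gene was called. In a list of 28 ribosomal protein genes 1, RPS3, was lower and 0 higher. That list covers part of the family and leaves out RPL41A, which was called higher.

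Across the 6402 genes the Hms1 rates were most like those of Phd1 by rank (Spearman 0.512), then Mga1 (0.482) and Msn4 (0.451). By Pearson's r the order was Mga1 (0.656), Msn4 (0.620) and Phd1 (0.601). Rtg1 had a rank correlation of 0.348 and Hms2 of 0.408. These correlations are a description across genes, which share windows and lines, of libraries that differ in depth. Against Hms2 alone, 4 genes were higher and 0 lower, the 4 being YHL008C, YHL006W-A, ALR1 and YMR193C-A. Against the 2836 lines of Rtg1 alone 0 were higher and 25 lower, and YHL008C, with no Rtg1 line, had an adjusted p of 0.942 there.

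By position, 30.4% of Hms1 lines lay inside a listed feature (Wilson 29.3% to 31.5%), against 27.04% of the pool and 13.7% to 36.8% of the single libraries, of which 10 were above Hms1. The odds ratio was 1.18 with an adjusted p of 8.51e-09 over 4 classes by Fisher's exact test. Windows upstream of start codons took 81.5% of Hms1 and 81.9% of pooled lines (adjusted p 0.471), and the 20 kb at chromosome ends took 5.22% and 5.53% (adjusted p 0.409). Over genes with their own coordinates, pairs of gene and upstream line were densest between 101 and 300 bp from the start codon, with 14.3% in each 100 bp. At the 32 genes called higher that have their own coordinates, with 248 pairs, the densest steps were 301 to 400 bp with 21.0% and 401 to 500 bp with 15.3%. These are 52 and 38 pairs, from genes picked for many lines. Genes with dense groups weigh in them, among them YHL008C with all 13 lines between 321 and 461 bp. A difference in distance from all genes was not tested. A line in the windows of more than 1 gene counts for each of them.

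**Figure D4:**
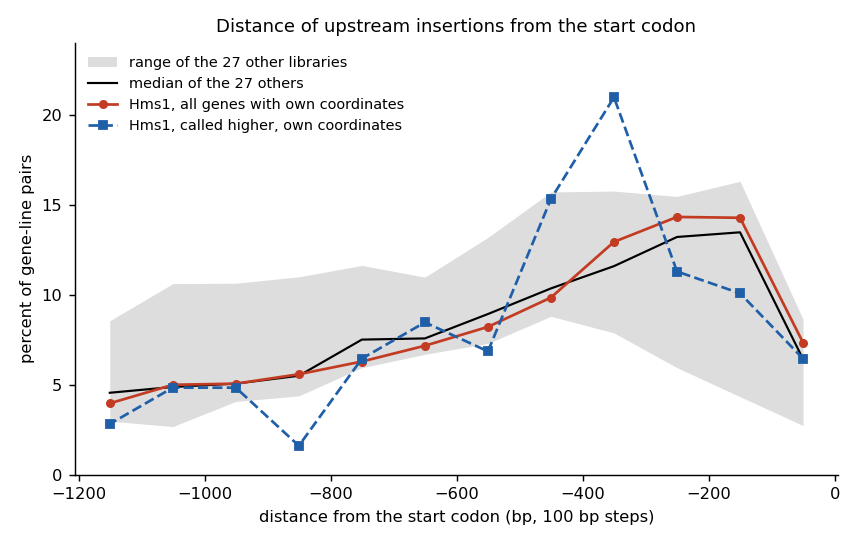
Percent of pairs of gene and upstream line per 100 bp step of distance from the start codon, over genes with their own coordinates, for Hms1 (red), the median (black) and range (grey) of the 27 others, and Hms1 at the 32 such genes called higher (blue dashes). Hms1 runs inside the grey range with 14.3% in each step from 101 to 300 bp. The blue line peaks at 21.0% between 301 and 400 bp, on 52 of 248 pairs from genes picked for many lines.

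Expression of the 48 genes was described from 1 RNA library per medium, with no test. The median log2((starved + 1)/(rich + 1)) of RPKM was 0.06, against 0.01 over all genes tested, and 3 genes were at least 2-fold higher and 2 at least 2-fold lower in the starved library, where 10.3% and 3.37% of all genes were. Their median RPKM in rich medium was 79.0, against 43.9 over all genes. The largest differences were at LAP3, a cysteine aminopeptidase, from 90.3 in rich to 485 in starved medium, and at ENO2, from 7626 to 2009. HPA3, an acetyltransferase, went from 116 to 363, FCY2 from 157 to 315, and RPL41A from 75626 to 36776. YHL008C stood at 35.2 and 61.5 RPKM. The 49 lower genes had a median of 0.51, and 17 of them were at least 2-fold higher in starved medium.

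**Figure D5:**
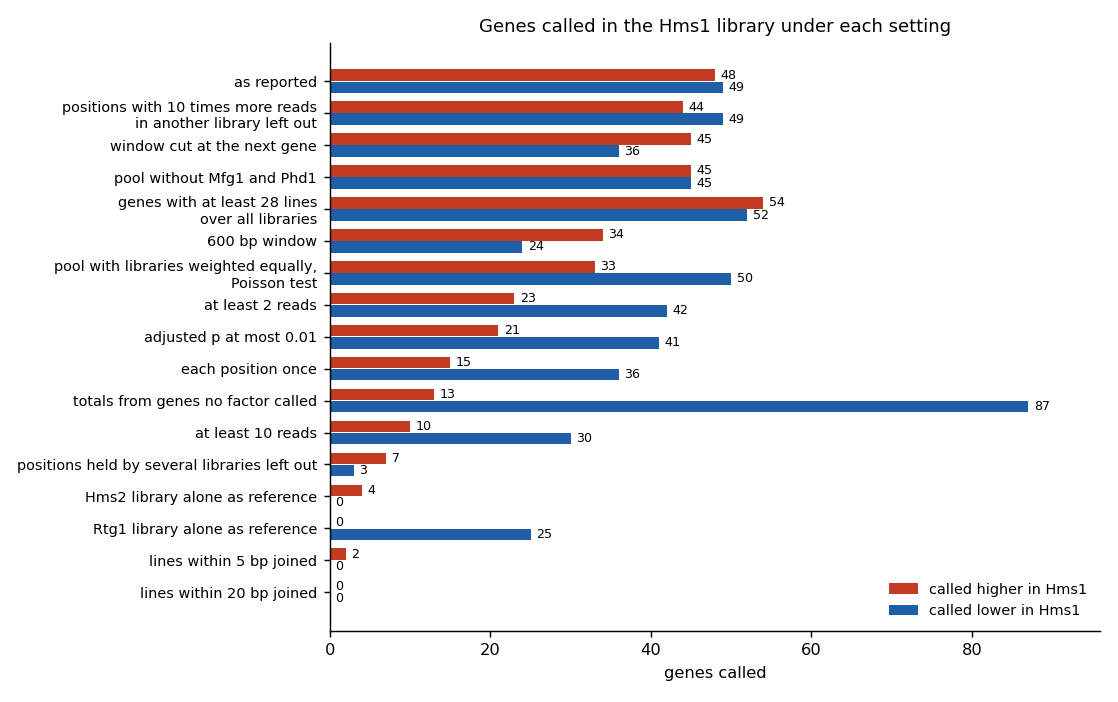
Number of genes called higher (red) and lower (blue) in Hms1 under the reported setting and 16 others. The 48 and 49 genes of the reported setting become 15 and 36 with each position counted once, 13 and 87 with totals from genes that no factor called, and 2 and 0 with lines within 5 bp joined.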

How the data were processed

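Each deposited insertion list gives chromosome, position and a whole number per line with no header, read here as the count of reads that the authors mapped to an insertion. The authors' deposited p-value table does not state its test. Deposited RPKM, per the file headers reads scaled by the authors to gene length and depth, were used with a pseudocount of 1. Aligner, filters and build were not given in the sources used here. All deposited value columns were assigned.

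Of 6450 genes 6444 were placed and 42 of these had no line. Overlapping genes carry merged coordinates (1210). Symbols came from the RefSeq table, which held 5817 of the genes. Lines were counted as listed, per 1000 lines of the library. Python 3.11.15, scipy 1.17.1, pandas 2.3.3, numpy 2.4.6 and matplotlib 3.10.9 were used, and the test was run on simulated data. Joined sites chain lines of a library whose gaps are at most 5 or 20 bp.

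The genes named are the 25 higher genes with the smallest adjusted p and those of their loci, the 3 leading lower genes, HMS1, FLO11, called members of 3 lists, genes that change under an alternative and the 5 largest expression differences. Some genes that this rule names are not reported here. MSN1, NCP1, the MEP genes and those of the deposited table were named after their values were seen. Genes, lists and tests were chosen with earlier results of these data known. Motifs were not searched, for want of sequence.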

Additional observations from a re-analysis of the deposited data

How the results depend on the processing

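The 48 higher and 49 lower genes became 15 higher with each position counted once, 23 higher with at least 2 reads, 10 higher and 30 lower with at least 10 reads, and 7 and 3 without positions that several libraries list. With a 600 bp window 24 were lower, and at an adjusted p of 0.01 21 were higher. Against Rtg1 alone there were 0 higher and 25 lower, and against Hms2 alone 4 and 0. Settings added after seeing the data gave 2 higher and 0 lower (sites at 5 bp), 0 and 0 (sites at 20 bp, which merges dense groups by construction), and 13 higher and 87 lower (totals from pairs of gene and line at genes that no factor called). Leaving out 1 of the 27 pooled libraries in turn gave 40 to 58 higher and 40 to 56 lower. With libraries weighted equally there were 33 and 50, and with windows that stop at the next gene 45 and 36. None of the 48 was called in all of 13 settings against the pool, YHL008C and YHL006W-A were called in 12, and RPL41A in 10. The authors' deposited table gave 14 genes at 0.001, 6 at 0.0001 and 3 after Benjamini-Hochberg adjustment. The odds ratio of the share upstream of start codons, 0.977, was 1.01 with each position once and 1.001 with at least 2 reads, and passed in none of these. The expression median and the other shares by position kept their direction.

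Odds ratios that changed direction were those of ILV1 (0 at 600 bp and with windows that stop at the next gene), and of YDL185C-A and ENO2 (0 with windows that stop at the next gene, which no longer hold the lines). Against Rtg1 alone those of PCL2 and TEC1 were 2.44 and 3.56. Against Hms2 alone those of PCL2, CIN5, HMS1, TEC1, SOK2 and MSN4 were 1.04, 1.11, 1.06, 2.78, 2.28 and 1.21. TEC1 had 1.06 at 5 bp, and PCL2, TEC1 and SOK2 had 1.16, 2.05 and 1.14 at 20 bp. None of these passed the threshold, and beyond what the settings do by construction the cause was not tested. Odds ratios with no line in the reference have no value. The promoter motifs were not run.

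No paired analysis was possible because each factor has 1 library and no replicate. Of 6402 genes 4687 had at most 1 Hms1 line, and such counts have wide intervals.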

Other observations

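Of the 1326 Hms1 lines with a single read, 606 (45.7%) lay within 5 bp of another Hms1 line, while 464 of the lines with at least 2 reads (9.16%) lay that close to a line with more reads. Joining lines within 5 bp turned the 6394 lines into 5319 sites. Whether such neighbours are separate insertions was not tested.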
